A study of Arabidopsis thaliana with 4 samples.

Results

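PUB19 (AT1G60190), PUB23 (AT2G35930), PUB24 (AT3G11840) and PUB26 (AT1G49780) of Arabidopsis thaliana encode plant U-box proteins, a class of ubiquitin ligases, and were described here in leaf discs exposed to the thiol reductant dithiothreitol (DTT). They were found by gene symbol and locus, each has 1 probe set on the array, and they are 4 of the 13350 genes that had a probe set of their own in the annotation used. They were chosen from these same signals, compared between control and DTT within each replicate number. The DTT response of these genes is therefore given as a description, with no test. Both groups were wild-type Col-0 and used discs of full-grown source leaves from non-flowering rosette plants, taken as the night ended. Both were kept in MES buffer in darkness for 1 h, the DTT group with 5 mM DTT and the control group with none. All 4 arrays therefore came from cut tissue, and no array of uncut leaf is part of the comparison. Each group had 2 arrays, labelled as biological replicates and named here control 1, control 2, DTT 1 and DTT 2.

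A ubiquitin ligase brings a ubiquitin-charged conjugating enzyme together with a substrate protein, and the U-box is the fold that docks that enzyme. PUB22, PUB23 and PUB24 are close relatives that dampen the response to bacterial and fungal elicitors, and their transcripts are known to accumulate after elicitor treatment. PUB25 and PUB26 mark the immune kinase BIK1 for degradation and also act in cold signalling through the repressor MYB15. PUB19 and its relative PUB18 restrain responses to abscisic acid and drought, and PUB22 and PUB23 have been placed in drought signalling too, through the proteasome subunit RPN12a. DTT reduces disulfide bonds and disturbs protein folding in the endoplasmic reticulum.

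Each array gave a linear signal for 22810 probe sets. As deposited, the signals had the same 2% trimmed mean on every array, and median signals lay between 25.4 and 32.8. The arrays resembled each other by replicate number more than by treatment: across the 13648 probe sets tested, log2 signals correlated at 0.968 and 0.972 within a replicate number, at 0.919 between both controls and at 0.885 between both DTT arrays. Changes are therefore given within each replicate number. Where values carry ± they are a mean and SD over n = 2, and log2 changes are DTT minus control. RCA, a leaf mesophyll marker, had signals from 2751.6 to 4077.4, and EXPA7, a root hair expansin, from 12.0 to 18.4. FMA of guard cells had signals from 23.8 to 31.6, and the other 26 of the 29 tissue markers listed, those of phloem, seed and pollen among them, had no probe set of their own in the annotation used. In whole discs, fewer cells of a type and less RNA per cell cannot be told apart.

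PUB24 and PUB23 belong to the group that restrains elicitor responses, and both were higher on each DTT array than on either control array. PUB24 had a signal of 119.7 on control 1 and 91.7 on control 2, against 188.8 on DTT 1 and 152.6 on DTT 2. The lower DTT array thus lay above the higher control array, and the gain was alike in both replicates. It amounted to 1.58-fold in replicate 1 and 1.66-fold in replicate 2, a mean log2 change of 0.70 ± 0.05, from 105.7 ± 19.8 to 170.7 ± 25.6. Of the 13648 probe sets tested, 155 had a larger mean log2 change.

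PUB23 had signals of 623.8 and 717.3 on control 1 and 2, and 1063.6 and 740.6 on DTT 1 and 2. Its groups did not overlap either, but DTT 2 exceeded control 2 by little. Replicate 1 changed 1.71-fold and replicate 2 only 1.03-fold (mean log2 change 0.41 ± 0.51). In replicate 1, 336 of the tested probe sets had a larger log2 change, and in replicate 2, 6291 did. Without DTT 1 the mean log2 change was 0.15, so 1 array set most of it.

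PUB22, the remaining gene of this group, also had a probe set and was not among those chosen. Its signals were 717.5 and 744.2 on control 1 and 2, and 806.8 and 725.5 on DTT 1 and 2. The groups overlapped, and the replicates had log2 changes of 0.17 and -0.04 (limma adjusted p = 0.9999). Within a replicate, the log2 change of PUB24 exceeded that of PUB22 by 0.49 and 0.77, while that of PUB23 exceeded it by 0.60 and 0.08. These differences between genes were not tested, because PUB23 and PUB24 were chosen for their change.

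**Figure D1:**
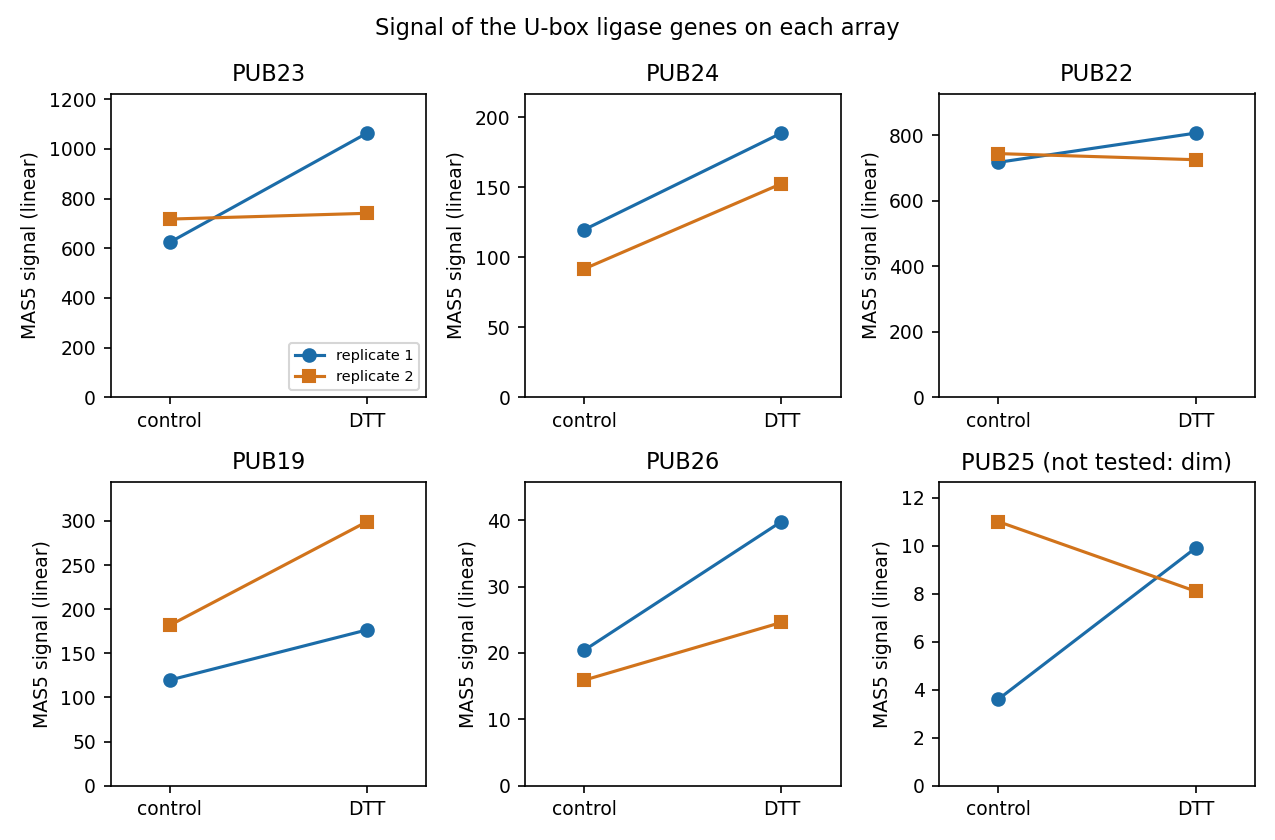
Linear MAS5 signal of PUB23, PUB24, PUB22, PUB19, PUB26 and PUB25 on the 4 arrays, with each line joining the control and DTT arrays of 1 replicate number; every vertical axis starts at 0 and has its own range. Both lines climb for PUB24, PUB19 and PUB26, only that of replicate 1 climbs clearly for PUB23, and the lines of PUB22 and PUB25 go opposite ways.

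PUB26, the ligase of BIK1 and MYB15, was the dimmest of the 4 probe sets and was higher with DTT in both replicates. Its signals were 20.4 on control 1, 15.9 on control 2, 39.8 on DTT 1 and 24.6 on DTT 2. Both DTT arrays lay above both control arrays, by 1.95-fold in replicate 1 and 1.55-fold in replicate 2 (mean log2 change 0.80 ± 0.24). The group means were 18.2 ± 3.18 and 32.2 ± 10.8. These signals lie near the array medians, where a MAS5 value is less precise: with the tested probe sets split into 3 equal classes by mean signal, the log2 changes of both replicates differed by a median of 0.42 in the lowest class, which holds PUB26, and by 0.30 in the highest, which holds PUB19 and PUB23. With log2(signal + 64), which damps dim probe sets, the mean log2 change of PUB26 was 0.22, and with log2(signal + 16) it was 0.48. Its mean change was the largest of the 4 genes without a pseudocount and the smallest with 64.

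PUB25, the partner of PUB26, was dimmer still and fell below the filter on low signals. It had 3.6 and 11.0 on control 1 and 2, and 9.9 and 8.1 on DTT 1 and 2. The groups overlapped and the replicates went opposite ways, so no change could be read at these signals.

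PUB19, the ligase of abscisic acid and drought responses, was higher with DTT in both replicates although its groups overlapped. It had 119.7 on control 1 and 181.8 on control 2, and 176.6 on DTT 1 and 299.3 on DTT 2. DTT 1 lay just below control 2. Within a replicate the change was 1.48-fold and 1.65-fold (mean log2 change 0.64 ± 0.11). The difference between replicates was of the same size, at 1.52-fold in the controls and 1.69-fold with DTT, replicate 2 being higher, whereas PUB24 and PUB26 were lower in replicate 2 in both groups. A comparison that leaves out an array mixes these differences, and the mean log2 change of PUB19 was 0.26 without DTT 2, 0.34 without control 1, 0.94 without control 2 and 1.02 without DTT 1. PUB18 is not analysed here.

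All 4 genes passed the filter on low signals, PUB26 by the smallest margin, with a mean log2 signal of 4.57 against the limit of 4.08. In 3 of the 4 both DTT arrays lay above both control arrays, which held for 8.01% of all probe sets tested. All 4 were higher in both replicates, against 24.3% of those tested, and PUB24 and PUB26 were at least 1.5-fold higher in both, against 0.755%. PUB19 missed that limit in replicate 1 and PUB23 in replicate 2. Because the genes were chosen on this same contrast, these shares describe the choice. The genes also differed from each other in how the 4 arrays ranked: PUB23, PUB24 and PUB26 peaked on DTT 1 and PUB19 on DTT 2.

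**Figure D2:**
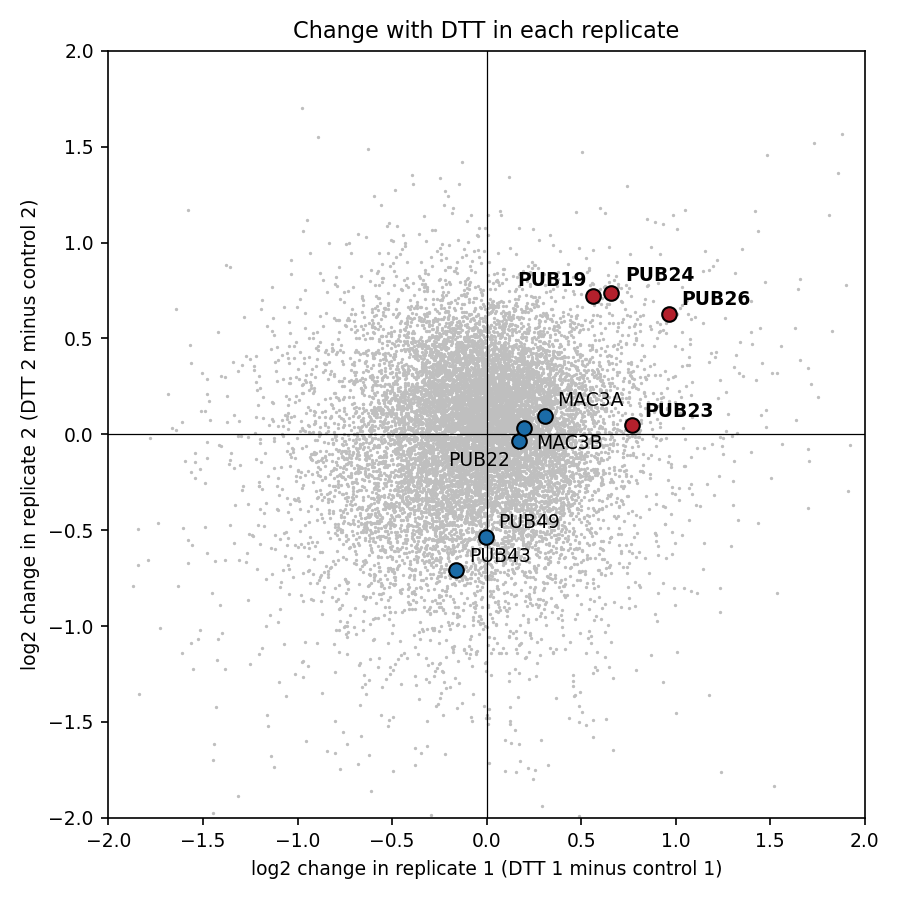
Log2 change with DTT in replicate 1 (horizontal) and replicate 2 (vertical) for the tested probe sets in grey, with the 4 chosen U-box genes in red and the 5 other tested U-box genes in blue; 67 probe sets lie outside the axes. PUB19, PUB24 and PUB26 sit in the upper right, PUB23 lies on the horizontal axis, and PUB43 and PUB49 lie below it.

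The other U-box genes named in the annotation shared no direction. These were 7 genes, 5 of which passed the filter, and limma called 0 of the 5 higher and 0 lower with DTT, and 0 had an unadjusted p under 0.05. Over all 13648 probe sets the same fit also called 0 (0.0%), and 95 had an unadjusted p under 0.05. The median log2 change of the 5 was 0.07, against -0.01 over all probe sets tested.

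PUB43 had signals of 366.4 and 359.6 on control 1 and 2, and 327.9 and 220.2 on DTT 1 and 2, so both DTT arrays lay below both controls (log2 change -0.16 in replicate 1 and -0.71 in replicate 2). PUB49, a U-box protein with a cyclophilin domain, had 97.8 and 116.3 in the controls and 97.6 and 80.3 with DTT, likewise below, though DTT 1 hardly differed from control 1. These were 2 of the 5, against 9.81% of all probe sets tested with both DTT arrays below both controls. MAC3A and MAC3B, related ligases of a spliceosome-associated complex that also takes part in immunity, had log2 changes of 0.31 and 0.20 in replicate 1 and of 0.09 and 0.03 in replicate 2, and their groups overlapped. PUB15 was too dim to test, with signals from 1.9 to 13.0.

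Early elicitor-response genes, among which PUB22, PUB23 and PUB24 are usually counted, had 6 members with a named probe set of 44 listed. Of these 6, limma called 0 in either direction, with 0 at an unadjusted p under 0.05. Over all 13648 probe sets tested the same fit also called 0, with 95 at an unadjusted p under 0.05. With replicate number in the limma fit, 3 of the 6 had an unadjusted p under 0.05, as did 1092 of the 13648. These 3 were WRKY53, STZ and CML37, with adjusted p of 0.167, 0.268 and 0.448. The median log2 change of the 6 was 0.46, against -0.01 over all probe sets tested. In 4 of the 6 both DTT arrays lay above both controls, against 8.01% of all probe sets. The lists were chosen with earlier results of these data known, so such shares among listed genes describe the choice and give it no support. WRKY53, a transcription factor induced early by elicitors, had 150.5 and 89.2 in the controls and 253.5 and 151.5 with DTT. Like PUB24 it changed alike in both replicates (log2 0.75 and 0.76) and was lower in replicate 2 in both groups. STZ, a zinc finger repressor, had 1572.3 and 1400.7 against 2673.4 and 1754.1, and the calmodulin-like gene CML37 had 331.4 and 499.5 against 557.2 and 625.3, with log2 changes of 0.77 and 0.75 in replicate 1 and 0.32 for both in replicate 2. The other gene with both DTT arrays above both controls was CML38, at 1170.0 and 1287.8 against 1491.4 and 1727.6. In replicates 1 and 2, WRKY6 had log2 changes of 0.23 and -0.72 and WRKY22 of -0.18 and 0.03, opposite ways in each gene, and their groups overlapped.

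Upstream of these genes, the receptors and kinases of elicitor signalling had 2 members with a named probe set of 35 listed, and both had lower means with DTT. BIK1, the kinase that PUB25 and PUB26 act on, had 667.2 and 512.4 on control 1 and 2, and 709.8 and 297.7 on DTT 1 and 2. The replicates had log2 changes of 0.09 and -0.78, so its low mean rests on DTT 2. EFR, the receptor for a bacterial elongation factor, had 140.5 and 69.9 in the controls and 85.2 and 50.5 with DTT. It was lower in both replicates (log2 -0.72 and -0.47), but the groups overlapped because control 2 lay below DTT 1. Neither passed the test, which left replicate number out (limma adjusted p = 0.9999 for each, unadjusted p = 0.507 for BIK1 and 0.273 for EFR). With replicate number in the limma fit, the unadjusted p was 0.142 for BIK1 and 0.0203 for EFR. The adjusted p in that fit was 0.833 for BIK1 and 0.448 for EFR.

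**Figure D3:**
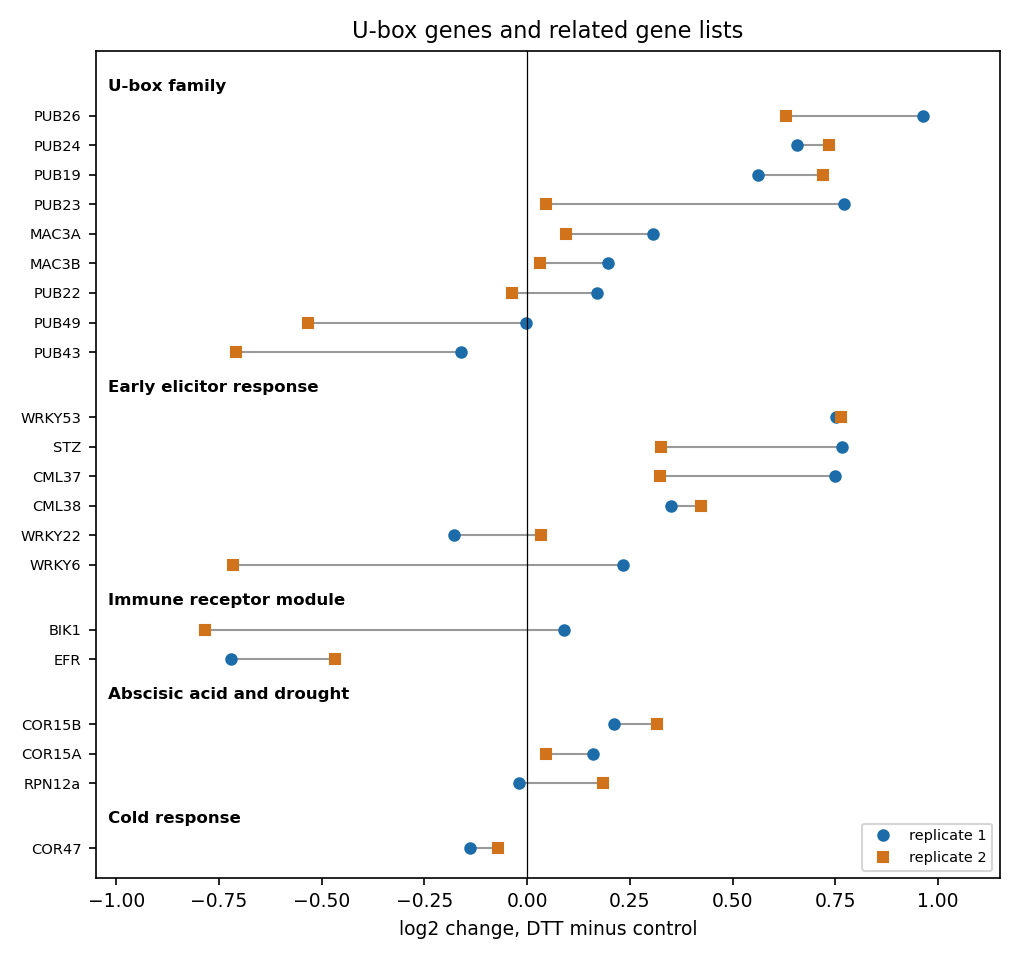
Log2 change with DTT in replicate 1 (circles) and replicate 2 (squares) for the tested genes of each list, sorted by mean within a list and with a gene shown once where lists share it. PUB24, PUB19 and WRKY53 have both points above 0.5 and close together, while PUB23, BIK1 and WRKY6 have points far apart.

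Few genes of the pathways of PUB19 and PUB26 could be matched to a probe set. The annotation used names no gene for 8730 of 22746 probe sets, and whether that accounts for the few matches was not tested. Of 31 genes of abscisic acid and drought responses, 3 were matched and limma called 0, with 0 at an unadjusted p under 0.05. The same fit called 0 of all 13648 probe sets tested, with 95 at an unadjusted p under 0.05. COR15B and COR15A, cold- and drought-induced chloroplast proteins, had both DTT arrays above both controls, against 8.01% of all probe sets tested. In replicates 1 and 2 the log2 changes were 0.21 and 0.32 for COR15B, and 0.16 and 0.05 for COR15A. RPN12a, the proteasome subunit that PUB22 and PUB23 mark, had 309.1 and 390.8 in the controls and 305.0 and 444.3 with DTT, with overlapping groups. Of 18 genes of cold signalling, 4 were matched and limma called 0, as over all probe sets tested. At an unadjusted p under 0.05 there were 0. Of these 4 genes, 3 were shared with the lists above. The other one, the dehydrin gene COR47, differed by -0.14 in replicate 1 and -0.07 in replicate 2 on the log2 scale. MYB15 is not analysed here.

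The named genes most like each of the 4 were found by the distance between log2 signals centred over the 4 arrays. PUB26 lay nearest to ATERDJ2B, a co-chaperone of protein import into the endoplasmic reticulum, at a distance of 0.08, then to AT4G14420 at 0.15 and to BZIP60, a transcription factor of the unfolded protein response, at 0.16. BZIP60 had 520.5 and 369.0 in the controls and 914.8 and 536.9 with DTT, the same order of arrays as PUB26. PUB24 lay nearest to AT4G17410 (0.07), AT3G23170 (0.07) and AT2G20625 (0.13). PUB23 lay nearest to AT3G07250 (0.02), AT3G05230 (0.06) and AT5G25240 (0.06). PUB19 lay nearest to AT1G33760 (0.11), AT5G08340 (0.13) and AT2G42760 (0.13), all of which had their highest signal on DTT 2.

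Those neighbours were picked as the nearest of all tested probe sets with 1 named gene. None of the 4 genes could therefore lie closer to another of the 4 than to them. Among the 4, PUB24 and PUB26 were closest, at 0.29, and PUB19 and PUB26 farthest, at 1.24. With 4 arrays these distances are a description and many genes share any one pattern.

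**Figure D4:**
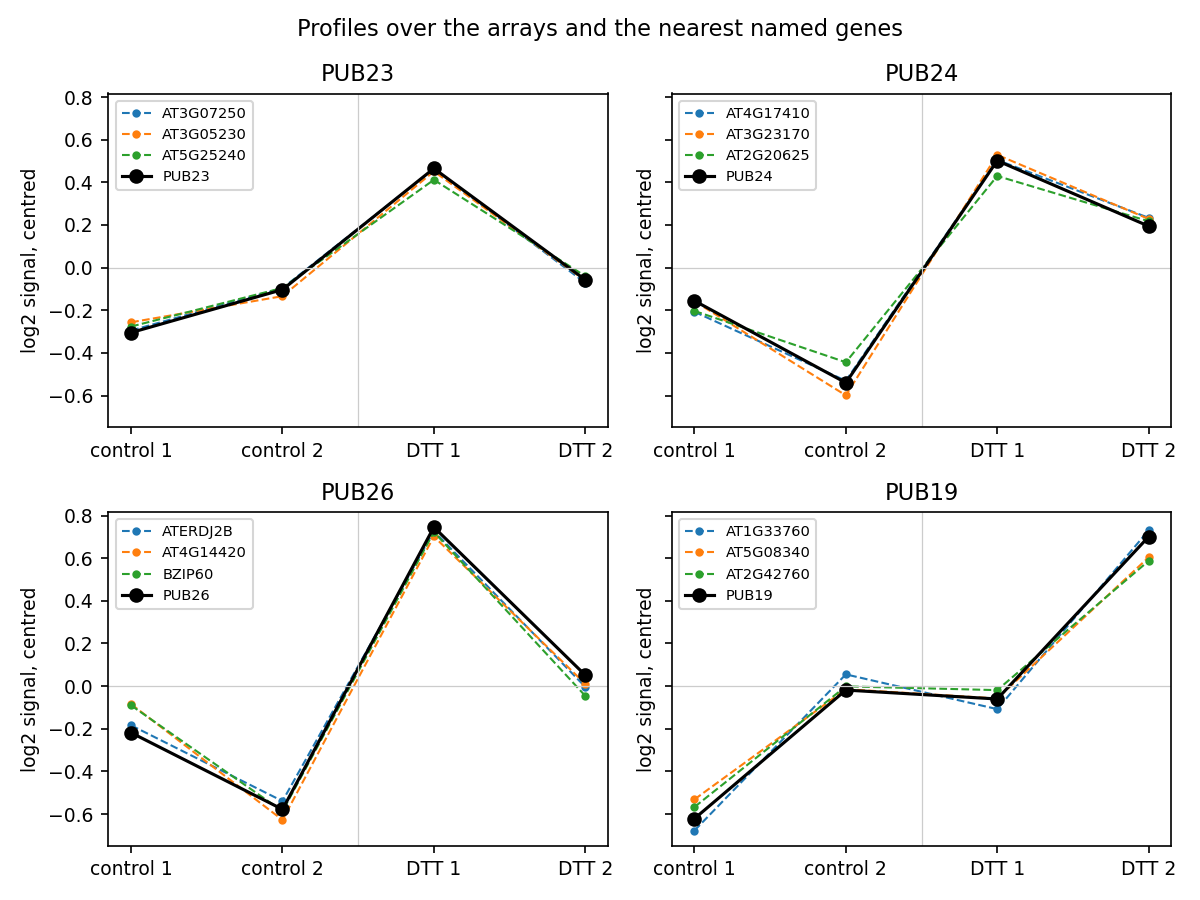
Log2 signal centred on its mean over the 4 arrays for each of the 4 genes (black) and the 3 nearest named genes (dashed). PUB23 is high on DTT 1 alone, PUB24 and PUB26 are high on DTT 1 and low on control 2, and PUB19 is lowest on control 1 and highest on DTT 2.

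At the probe set used for each, the genes that flank the 4 on the chromosome had overlapping groups where they were measured. In the gene order of RefSeq assembly TAIR10.1, 5 of the 8 protein-coding neighbours had a probe set. All 5 overlapped between DTT and control, as 82.2% of all probe sets tested did. AT1G60200, beside PUB19, had 2 probe sets, of which only the brighter was used. AT1G49790, beside PUB26, was below the filter on low signals. AT3G11850, beside PUB24, had the largest mean log2 change of these, 0.47, with 0.75 in replicate 1 and 0.20 in replicate 2. AT2G35920, beside PUB23, had 0.26 and 0.62, the larger change being in the replicate in which PUB23 changed little.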

How the data were processed

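Each sample's biotin-labelled total RNA was read on 1 Affymetrix ATH1 array. The authors deposited linear intensity values, 1 signal per probe set, from MAS5, per the submitters' processing notes; its settings were not given in the sources used here. The 2% trimmed mean was 100.01 on every array, so a shift of total mRNA cannot be seen. Zeros were set to 0.1 and log2 taken, with no further scaling. Control probe sets (64) and those whose mean log2 signal was below the 40th percentile were left out of the test, leaving 13648. limma 3.58.1 in R 4.3.3 (lmFit, eBayes with trend, Benjamini-Hochberg, 0.05) compared DTT with control without a block; replicate number as a block, other scalings, pseudocounts, filters, variance settings and leaving out arrays were alternatives. The fit was tested on simulated data.

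Of 22746 other probe sets, 13513 had 1 gene, 503 several and 8730 none in the platform annotation. Names are from it; RefSeq was used for loci, synonyms and gene order. The genes and lists were chosen with earlier results of these data known. The naming rule took the 4 genes and their closest relatives, and per list the 3 highest and 2 lowest log2 changes where none passed. It also took every gene that a symbol or synonym in the annotation or RefSeq names as a U-box gene. Only probe sets with 1 gene were searched, and U-box genes without such a name were left out. Promoter and protein sequences were not analysed here, and 1 further gene list is not reported here. Python 3.11.15, pandas 2.3.3 and matplotlib 3.10.9 were used.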

Additional observations from a re-analysis of the deposited data

How the results depend on the processing

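Without a block, 0 probe sets were called under each alternative with all arrays, and 0 to 3 when 1 array was left out, the 3 without DTT 1. With replicate number as a replicate block, limma called 126 probe sets, 39 higher and 87 lower. Nothing in the labels ties equal numbers to a shared batch, although across probe sets replicate 2 minus replicate 1 in the controls correlated at 0.746 with the same difference in DTT. The block called 0 of the other U-box genes tested and 0 in each other list reported here. At an unadjusted p under 0.05 this limma fit had EFR, WRKY53, STZ and CML37, with adjusted p of 0.448, 0.167, 0.268 and 0.448. Over all 13648 probe sets tested, 1092 were at an unadjusted p under 0.05 in the same fit. No alternative called a gene of these lists. The log2 changes of PUB19, PUB23, PUB24 and PUB26 were positive under each of 8 alternatives, between 0.26 and 1.02, 0.15 and 0.67, 0.47 and 0.89, and 0.22 and 1.14. Under other scalings and pseudocounts each replicate's change was positive too, with 0.03 for PUB23 in replicate 2 as the lowest. A pseudocount cannot turn the sign of a replicate's change. For PUB23, PUB24 and PUB26, whose groups did not overlap, leaving out 1 array could not turn the sign either. The genes were chosen on this same contrast, so these signs describe the choice and give it no support. One median per array moved the median of all probe sets to 0.08. The array number, and for PUB26 and PUB25 a signal near the low end, limit precision.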
